A study of Mus musculus with 6 samples.

Results

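A set of 10 genes that write, erase or guide DNA methylation was followed in fetal mouse ovaries labelled WT or Hnrnpl-null, the latter for the gene of the RNA-binding protein hnRNPL. They were taken by symbol from the deposited count table: the methyltransferases Dnmt1, Dnmt3a and Dnmt3b, the cofactors Dnmt3l and Uhrf1, the TET dioxygenases Tet1, Tet2 and Tet3, and Morc1 and Spocd1. Of these 10 symbols, 9 named a row among the 25239 genes of the table. Spocd1 was not analysed here. The study compared ovaries of C57BL/6 mice at E18.5 in 2 groups of 3 libraries, one with the genotype WT and the other with the genotype Hnrnpl-null. The titles of the second group carry the abbreviation CKO, and the labels say neither what it stands for nor which promoter or cell type a deletion would depend on. The labels name oocyte as the cell type and no sort after the ovaries were dissociated. Markers of somatic cells were present in each library, so the values below are for the mixed cells of the ovary. The labels tie no library to its own animal, and the p-values below therefore measure a spread that may be technical.

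DNA methylation sits on cytosines that are followed by guanine (CpG sites). DNMT1 copies it to the new strand after replication, guided there by UHRF1, which binds half-methylated DNA. DNMT3A and DNMT3B place new marks, with DNMT3L as a cofactor that has no catalytic activity of its own, and TET proteins oxidise methylcytosine on the way to its removal. Germ cells of the mouse lose most methylation as primordial germ cells. Female germ cells regain it after birth, in growing oocytes, while male germ cells regain it before birth, when SPOCD1 and MORC1 help to silence transposons.

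Library depth was uneven. Total counts ran from 8949781 to 22401419, and Rn45s, the ribosomal RNA precursor, held 18.6% to 36.0% of them in 4 libraries but 83.0% in the library of WT replicate 1 and 86.1% in that of Hnrnpl-null replicate 3. The 9 genes together had 3949 and 1476 counts in these Rn45s-rich libraries, where the remaining 4 had 6513 to 13126, so the least precise values come from the former. Hnrnpl itself was at 145 to 171 CPM (counts scaled to library size) in WT and at 166 to 213 CPM in Hnrnpl-null (adjusted p = 0.50, edgeR quasi-likelihood test). Its count over all exons and all cells did not set the groups apart and so does not check the labels, and Hnrnpl-null is used throughout as the name the labels give, on which every direction below rests.

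None of the DNA methylation genes was called changed. Genes count as called where the edgeR test over all genes gave a Benjamini-Hochberg adjusted p under 0.05. Of the 8 genes that passed the filter on low counts, 0 were called lower and 0 higher, where 4.46% of the 14849 tested genes were called. An unadjusted p below 0.05 was reached by 1 of the 8, Tet3, and by 2746 of all tested genes. DESeq2 and limma-voom each called 1 of the 8, again Tet3, where they called 7.82% and 8.57% of the genes they tested. The median log2 fold change of the 8 genes was 0.008, with 4 above and 4 below 0, and the median over all tested genes was -0.01. The 95% interval of the ratio of Hnrnpl-null to WT lay inside 1.5-fold in both directions for 5 of the 8 genes, against 30.5% of all tested genes. The width of an interval depends on the level of a gene, and the 8 were not matched to other genes for level. Groups that did not overlap were seen for 2 of the 8, Tet3 and Morc1, both lower in Hnrnpl-null, where 25.6% of all tested genes had separate groups and 13.2% had separate groups with Hnrnpl-null lower.

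**Figure D1:**
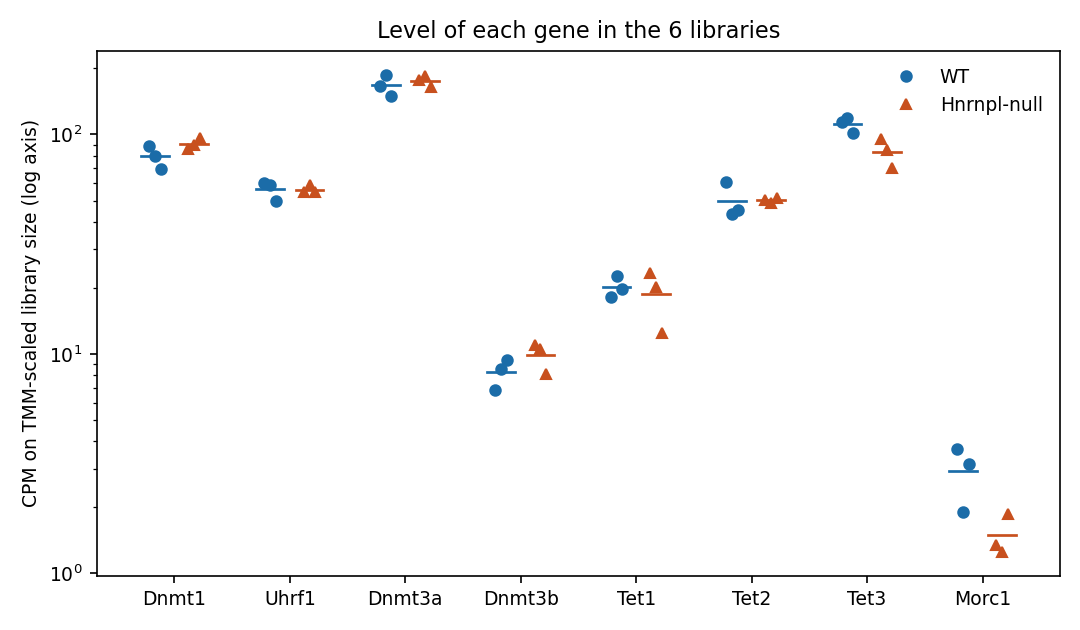
Level of each gene in CPM (log axis) in the 3 WT libraries (circles) and the 3 Hnrnpl-null libraries (triangles), with a bar at each group's mean. Tet3 and Morc1 have groups that do not overlap, and Dnmt3l, with 0 counts in all 6 libraries, is not drawn.

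Per kilobase of exon, the scale on which genes can be compared with each other, the order of levels was the same in both groups. In WT it ran from Dnmt3a at 16.9 ± 1.86 (SD, n = 3) through Uhrf1 at 15.4 ± 1.60 and Dnmt1 at 12.6 ± 1.54 to Tet3 at 9.49 ± 0.777 CPM per kilobase. Below these came Tet2 at 5.40 ± 1.05, Dnmt3b at 1.91 ± 0.305, Tet1 at 1.41 ± 0.161 and Morc1 at 0.957 ± 0.30 CPM per kilobase. Dnmt3a and Uhrf1 overlapped over the WT libraries, as did Uhrf1 and Dnmt1. The lowest Dnmt3b value and the highest Tet1 value both round to 1.58 CPM per kilobase, without overlap. The other neighbours in the order did not overlap either. In Hnrnpl-null only Uhrf1 (14.9 to 16.2 CPM per kilobase) and Dnmt1 (13.6 to 15.2 CPM per kilobase) overlapped among neighbours.

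DNMT1 and UHRF1 maintain methylation in dividing cells. Dnmt1 (mm10 chromosome 9, 20907206 to 20959888, minus strand, 6325 exonic bases) and Uhrf1 (chromosome 17, 56303337 to 56323486, plus strand, 3651 exonic bases) were the members whose promoters held an E2F-type motif, the kind bound by E2F factors of the cell cycle. Motifs searched were TTTCGCGC, TTTGGCGC, TTTCCCGC and TTTGCCGC on both strands, in RefSeq windows of build GRCm38.p6 that run from 250 bases before to 50 bases after each annotated start. Such windows were on file for 8 of the members, 15 windows in all, and Morc1 and Spocd1 had none. At least 1 motif was found in 2.26% of all 32851 windows of this length. The windows of the inner Dnmt1 start (chr9:20952574-20952873, minus strand) and of the inner Uhrf1 start (chr17:56304063-56304362, plus strand), 976 bases inside the counted gene model, are shown because they are the 2 of the 15 with a match, in capitals.
Dnmt1 inner start: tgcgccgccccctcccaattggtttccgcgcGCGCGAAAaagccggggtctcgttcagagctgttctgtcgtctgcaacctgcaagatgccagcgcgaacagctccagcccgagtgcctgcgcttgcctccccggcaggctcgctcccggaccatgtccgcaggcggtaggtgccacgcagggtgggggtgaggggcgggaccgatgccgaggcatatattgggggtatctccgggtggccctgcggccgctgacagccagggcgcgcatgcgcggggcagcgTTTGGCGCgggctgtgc
Uhrf1: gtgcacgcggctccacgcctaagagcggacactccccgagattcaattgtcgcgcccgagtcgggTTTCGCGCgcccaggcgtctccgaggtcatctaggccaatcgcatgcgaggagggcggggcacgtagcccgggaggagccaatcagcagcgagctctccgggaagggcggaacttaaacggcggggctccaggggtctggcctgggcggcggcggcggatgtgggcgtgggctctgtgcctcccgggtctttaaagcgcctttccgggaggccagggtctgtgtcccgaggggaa
The Dnmt1 window held TTTCGCGC on the reverse strand and TTTGGCGC on the forward strand, and the Uhrf1 window held TTTCGCGC on the forward strand. A match describes the letters and does not show that a factor is bound there.

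Dnmt1 was at 88.9, 80.2 and 69.5 CPM in WT and at 86.2, 89.8 and 96.1 CPM in Hnrnpl-null, each in the order of the replicate numbers. All Hnrnpl-null libraries were above 2 of the WT libraries and 2 of them above the third, so the groups overlapped. Hnrnpl-null stood to WT in a ratio of 1.14, with a 95% interval of 0.954 to 1.36 (edgeR adjusted p = 0.44). A fall of the summed Dnmt1 transcript to below 0.954 of WT is outside that interval.

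Dnmt1 has 3 annotated starts in RefSeq, the outermost 7265 bases upstream of the innermost. Oocytes are known to use an upstream start that yields a shorter protein. The outermost window (chr9:20959839-20960138, minus strand) is shown beside the inner one because the deposited count adds all starts of the gene together. Its CpG sites are in capitals.
Dnmt1 outermost start: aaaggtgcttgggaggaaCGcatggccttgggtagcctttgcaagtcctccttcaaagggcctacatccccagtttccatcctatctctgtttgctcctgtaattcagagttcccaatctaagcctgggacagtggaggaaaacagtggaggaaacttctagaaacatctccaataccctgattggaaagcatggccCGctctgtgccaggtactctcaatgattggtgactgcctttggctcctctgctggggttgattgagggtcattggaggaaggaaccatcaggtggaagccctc
It held 2 CpG sites, a number reached by 85.9% of all windows, while the inner window held 33, reached by 8.56%. Which start the Dnmt1 counts came from was not analysed here.

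Uhrf1 was the least changed of the 8. It was at 60.4, 59.0 and 49.6 CPM in WT and at 54.4, 59.0 and 54.9 CPM in Hnrnpl-null, so the Hnrnpl-null libraries fell within the WT range. The ratio was 0.998, with a 95% interval of 0.836 to 1.19 (edgeR adjusted p = 0.997).

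Beside these, a list of 24 genes of S phase and mitosis had 6 higher and 0 lower calls of 24 tested, with a median log2 fold change of 0.42 against -0.01 for all tested genes (2.67% of all tested genes were called higher). The replicative helicase subunits Mcm7 and Mcm3 were at 167% and 154% of WT, and Rrm2, a subunit of ribonucleotide reductase, was at 194% (edgeR adjusted p = 0.0058, 0.0096 and 0.0075). The calls in this list dropped to 2 without WT replicate 1 or WT replicate 2 and to 3 without Hnrnpl-null replicate 1 or 2. A RefSeq window was on file for 19 genes of this list. Of these, 6 held the E2F-type motif in at least 1 window, against 2.6% of all genes. They were Mcm3 and Mcm7, both called higher, and Cdc6, Cdk1, Mcm5 and Mcm6, which were not called. The called genes Rrm2, Top2a, Mcm2 and Rrm1 held none. Whether Dnmt1 or Uhrf1 differed in response from the genes of this list was not tested.

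The enzymes of new methylation were at very different levels. Dnmt3a (chromosome 12, 3806980 to 3914443, plus strand, 9947 exonic bases) was at 166, 187 and 150.5 CPM in WT and at 177, 184 and 165 CPM in Hnrnpl-null. The Hnrnpl-null values lay inside the WT range. The ratio was 1.05, with a 95% interval of 0.875 to 1.25 (edgeR adjusted p = 0.83).

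Dnmt3b (chromosome 2, 153649449 to 153687730, plus strand, 4327 exonic bases) was at 6.84, 8.57 and 9.43 CPM in WT and at 10.99, 10.6 and 8.11 CPM in Hnrnpl-null. Hnrnpl-null replicates 1 and 2 were above the WT libraries, and Hnrnpl-null replicate 3, with 26 counts, was among them. The ratio was 1.21, with a wide 95% interval of 0.868 to 1.70 (edgeR adjusted p = 0.56).

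Among the 3 DNMT genes, Dnmt3a held 53.8 ± 2.31% of the summed level per kilobase in WT against 51.5 ± 1.86% in Hnrnpl-null (SD, n = 3 each). Dnmt1 made up 40.0 ± 2.99% and 41.9 ± 2.81%, and Dnmt3b 6.17 ± 1.42% and 6.66 ± 0.987%. For each of the 3 genes the shares overlapped between the groups (exact two-sided permutation p of 0.30 for Dnmt3a, 0.50 for Dnmt1 and 0.80 for Dnmt3b).

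Dnmt3l (chromosome 10, 78042287 to 78063622, plus strand, 2670 exonic bases) had 0 counts in each of the 6 libraries. None of its exonic bases is shared with another gene of the table. How multi-mapping reads were counted is not given in the labels or headers. Since nearly all low counts of the table were even, 1 read pair was taken to be worth a pair of counts, and the limit that a count of 0 allows was set at 6 counts summed over the libraries of a group. That allows a level of up to 0.130 CPM in WT and of up to 0.113 CPM in Hnrnpl-null, for counting error only. Per kilobase the WT limit was 0.0485 CPM, against 16.9 for Dnmt3a. The window of the first Dnmt3l start (chr10:78042037-78042336, plus strand) is shown with its CpG sites in capitals, because Dnmt3l was the member with no detected transcript.
Dnmt3l first start: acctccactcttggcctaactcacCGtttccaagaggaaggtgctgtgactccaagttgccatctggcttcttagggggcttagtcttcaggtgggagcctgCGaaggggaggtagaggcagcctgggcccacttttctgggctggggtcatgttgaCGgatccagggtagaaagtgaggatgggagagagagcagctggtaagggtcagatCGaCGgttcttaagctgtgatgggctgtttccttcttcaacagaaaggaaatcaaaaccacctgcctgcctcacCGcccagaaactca
It held 6 CpG sites, and the windows of the other Dnmt3l starts held 4 and 3, where the median over all windows was 7. The windows of Dnmt3a held 18 to 47 and that of Tet2 held 57, the most among the members.

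Of the TET genes, Tet3 stood nearest to the threshold. TET3 is the dioxygenase that the egg supplies to oxidise methylcytosine in the zygote. Tet3 (chromosome 6, 83362374 to 83456392, minus strand, 11741 exonic bases) was at 114, 119 and 101 CPM in WT and at 95.1, 84.9 and 70.5 CPM in Hnrnpl-null. All 3 Hnrnpl-null libraries were below all 3 WT libraries, and Hnrnpl-null replicate 3 was the lowest. The log2 fold change was -0.41 ± 0.13 (SE), a ratio of 0.753 with a 95% interval of 0.625 to 0.909, and Tet3 missed the call by edgeR (adjusted p = 0.089). It passed by DESeq2 (adjusted p = 0.021) and by limma-voom (adjusted p = 0.044). Without Hnrnpl-null replicate 3 the log2 fold change was -0.31 (edgeR adjusted p = 0.16), and without both libraries richest in Rn45s it was -0.29 (edgeR adjusted p = 0.23). The only RefSeq window of Tet3 (chr6:83441629-83441928, minus strand) is shown with CpG sites in capitals, because Tet3 was the member with the smallest p. Its start lies 14714 bases inside the counted gene model, whose outer start has no window here.
Tet3: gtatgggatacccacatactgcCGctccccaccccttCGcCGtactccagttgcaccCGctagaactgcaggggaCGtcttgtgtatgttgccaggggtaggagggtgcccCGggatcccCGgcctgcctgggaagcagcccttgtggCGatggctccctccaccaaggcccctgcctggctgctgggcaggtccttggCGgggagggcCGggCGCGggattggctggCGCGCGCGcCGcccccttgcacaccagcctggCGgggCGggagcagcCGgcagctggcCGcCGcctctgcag
It held 22 CpG sites, a number reached by 23.1% of all windows, and no E2F-type motif among the 4 searched.

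Tet1 and Tet2 overlapped between the groups. TET1 is known for activating meiotic genes in female primordial germ cells. Tet1 (chromosome 10, 62804570 to 62887324, minus strand, 14354 exonic bases) was at 18.2, 22.7 and 19.7 CPM in WT and at 23.5, 20.2 and 12.5 CPM in Hnrnpl-null. The low value came from the 40 counts of Hnrnpl-null replicate 3, and the other Hnrnpl-null libraries lay at or above the middle of WT. The ratio was 0.960, with a 95% interval of 0.713 to 1.29 (edgeR adjusted p = 0.91), and the log2 fold change turned positive without Hnrnpl-null replicate 3 (0.11) or WT replicate 2 (0.04).

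Tet2 lacks the CpG-binding CXXC domain that other family members carry. Tet2 (chromosome 3, 133463677 to 133544390, minus strand, 9205 exonic bases) was at 60.8, 43.2 and 45.1 CPM in WT and at 50.4, 48.9 and 51.2 CPM in Hnrnpl-null. The Hnrnpl-null libraries lay close together between the WT values, of which WT replicate 1 was the highest. The ratio was 1.01, with a 95% interval of 0.823 to 1.25 (edgeR adjusted p = 0.96).

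Shares within a family do not depend on how libraries are scaled. Tet3 made up 55.3%, 61.7% and 57.9% of the summed TET level per kilobase in the WT libraries, and 53.2%, 51.8% and 48.3% in those of Hnrnpl-null. The groups did not overlap, with means of 58.3 ± 3.20% and 51.1 ± 2.53% (SD, n = 3 each), a difference of -7.21 percentage points. The exact two-sided permutation test gave p = 0.1, the smallest value that 3 against 3 libraries can give. Tet2 made up 33.01 ± 4.42% and 39.6 ± 4.54%, with overlapping groups (exact permutation p = 0.20), and Tet1 8.68 ± 1.32% and 9.28 ± 2.01% (exact permutation p = 0.60). These 6 shares, 3 TET and 3 DNMT, were set up after the levels had been seen.

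**Figure D2:**
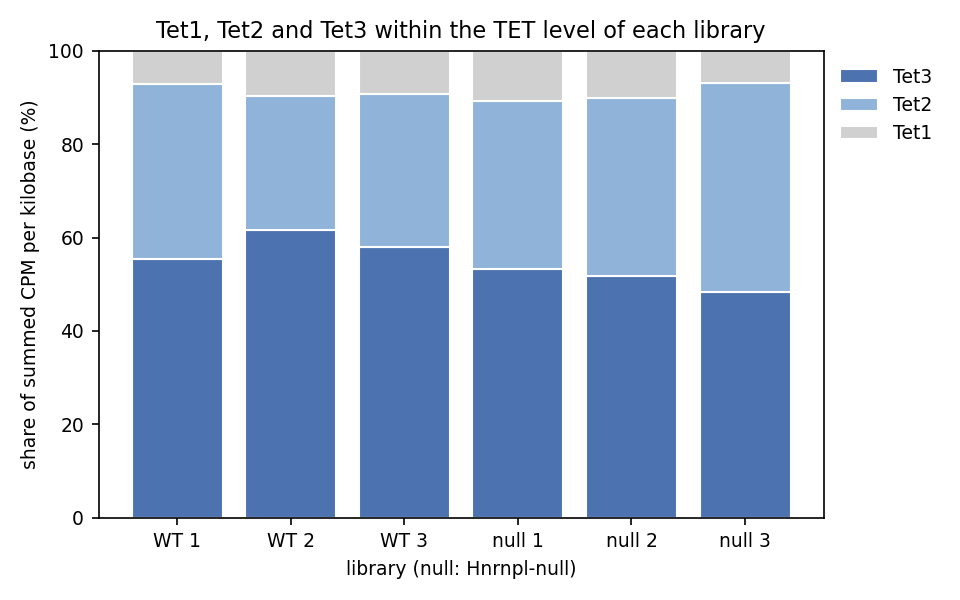
Share (%) of Tet1, Tet2 and Tet3 in their summed CPM per kilobase of exon, one stacked bar per library. Tet3 holds 55.3% to 61.7% in the WT bars and 48.3% to 53.2% in the Hnrnpl-null bars.

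Morc1 was the scarcest member with counts. MORC1 is a nuclear ATPase that silences transposons in male germ cells. Morc1 (chromosome 16, 48431237 to 48630905, plus strand, 3050 exonic bases) had 28, 46 and 46 counts in WT and 32, 33 and 6 counts in Hnrnpl-null. On the scaled libraries that gave 3.68, 1.90 and 3.17 CPM for the WT libraries and 1.35, 1.25 and 1.87 CPM for those of Hnrnpl-null. The groups did not overlap, but WT replicate 2 and Hnrnpl-null replicate 3 were almost equal. The log2 fold change was -1.02 ± 0.50 (SE), a ratio of 0.493 with a 95% interval of 0.235 to 1.03, and Morc1 was not called (edgeR adjusted p = 0.30). At this depth a fall to 0.235 of WT and no change both lie inside the interval.

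**Figure D3:**
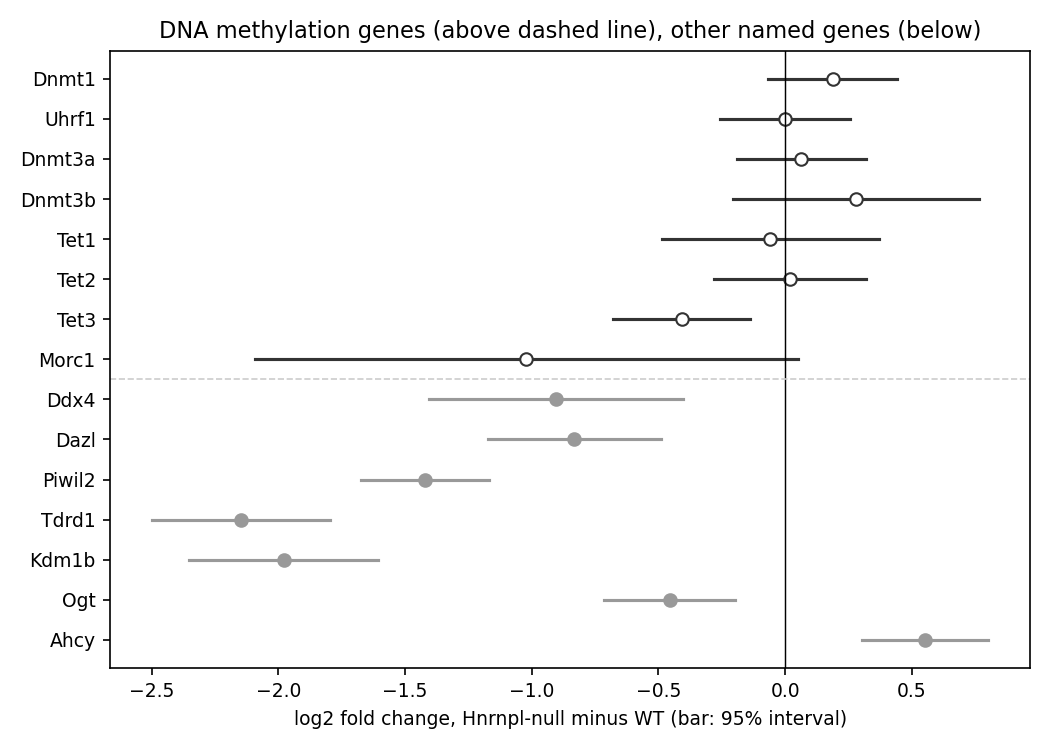
The log2 fold change of Hnrnpl-null against WT with its 95% interval, for the 8 tested members (above the dashed line) and for 7 other named genes (below). Filled points passed an adjusted p below 0.05 in the edgeR test. The intervals of Dnmt1, Uhrf1, Dnmt3a, Dnmt3b, Tet1, Tet2 and Morc1 include 0, and that of Tet3 does not.

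Of the 12 germ cell markers, all tested, 8 were called lower (Sycp3, Mael and Figla with the smallest p) and 0 higher, where 1.79% of all tested genes were called lower. Their median log2 fold change was -0.87, and they summed to 306 to 351 CPM in WT libraries and to 194 to 229 CPM in Hnrnpl-null. The lower calls numbered 5 without WT replicate 2 and 3 without WT replicate 3 or Hnrnpl-null replicate 2. Ddx4 was not called when any 1 WT library or Hnrnpl-null replicate 2 was left out (edgeR adjusted p of up to 0.16). Dazl was not called when WT replicate 3, Hnrnpl-null replicate 1 or Hnrnpl-null replicate 2 was left out (edgeR adjusted p of up to 0.073). In bulk ovary, fewer germ cells and less RNA per germ cell cannot be told apart. The part of this in the values of Tet3 and Morc1 was not tested.

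Set against the geometric mean of Ddx4 and Dazl, general germ cell transcripts at 53.4% and 56.2% of WT (edgeR adjusted p = 0.044 and 0.0096), the members had higher ratios in Hnrnpl-null, Morc1 excepted. The ratio was 2.22 times that of WT for Dnmt1, 2.03 for Dnmt3a, 2.31 for Dnmt3b, 1.93 for Uhrf1, 1.74 for Tet1 and 1.98 for Tet2. It was 1.44 times that of WT for Tet3. In each of these 7 the Hnrnpl-null libraries were all above the WT libraries, which gives p = 0.1 in an exact two-sided permutation test, the smallest value possible here. The median over 13647 tested genes with counts in all 6 libraries was 1.93, with 96.1% of them above 1, so these 7 did not stand apart in direction. Morc1 had log2 ratios of -3.18, -4.18 and -3.68 in WT and -3.97, -3.89 and -3.13 in Hnrnpl-null. Its groups overlapped and its ratio was 1.01 times that of WT (exact permutation p = 1), though leaving out WT replicate 2 or Hnrnpl-null replicate 3 turned its sign.

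Markers of other cells gave a mixed picture. Over all tested genes 2.67% were called higher and 1.79% lower. Pregranulosa markers, the somatic partners of oocytes, had 1 of 12 called higher (Kitl, the ligand of the Kit receptor) and 0 lower, with a median log2 fold change of -0.07. Markers of stroma had 3 of 8 higher (Col1a1, Dcn and Col3a1) and those of surface epithelium 3 of 6 (Msln, Upk3b and Krt19), but without Hnrnpl-null replicate 2 both counts were 0, and without WT replicate 2 they were 1 and 0. Leukocyte markers had 4 of 10 higher (Coro1a, Laptm5 and Ptprc with the smallest p), those of myeloid progenitors 7 of 7 (Mpo, Prtn3 and Ctsg) and those of mast cells 5 of 5 tested (Cpa3, Cma1 and Hdc). Of the 7 mast cell markers, Fcer1a and Ms4a2 had too few counts to be tested. All lists were chosen with earlier results of these data known, so these counts are a description. The myeloid progenitor list summed to 3.16 to 3.81 CPM in WT libraries and to 546 to 721 CPM in Hnrnpl-null. None of 6 endothelial markers (Kdr the most abundant) and none of 3 tested erythroid markers (Alas2 the most abundant) was called by edgeR. The median log2 fold change was -0.50 for the endothelial list, with 5 below 0 and only Kdr above. For the erythroid list it was 0.94, with all 3 above 0. At an unadjusted p below 0.05 there were 2 in each of these lists. DESeq2 called 2 endothelial, 1 lower and 1 higher, and 1 erythroid. By limma-voom 2 were called in each, the endothelial again 1 lower and 1 higher. No list had a gene at 0 in all 6 libraries. The part of these cells in the levels of Dnmt1, Uhrf1 or Dnmt3a was not tested.

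Partners and readers of DNA methylation mostly stayed below the threshold, with 2 exceptions that are known from oocytes. Of 26 tested genes, 2 were lower and 0 higher, where 1.79% of all tested genes were lower and 2.67% higher. The median log2 fold change was -0.17 against -0.01 for all tested genes. Kdm1b (chromosome 13, 47043499 to 47085279), a histone H3K4 demethylase needed for methylation of maternal imprints in growing oocytes, was at 62.6, 62.9 and 69.8 CPM in WT and at 18.4, 12.2 and 20.6 CPM in Hnrnpl-null. The groups were far apart, and Kdm1b fell to 25.4% of WT (edgeR adjusted p = 1.5e-05). Its log2 fold change was -1.98 ± 0.17 (SE). Of its 4987 exonic bases, 513 overlap the gene Dek. When each library was left out in turn, Kdm1b stayed called, with an edgeR adjusted p of at most 3.4e-04.

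Dppa3 (chromosome 6, 122626424 to 122630271), a maternal factor that keeps UHRF1 from methylating the oocyte genome, had 18, 130 and 50 counts in WT and 2, 2 and 0 counts in Hnrnpl-null. It fell (edgeR adjusted p = 5.5e-04), but the few Hnrnpl-null counts give no precise fold. The call held when each library was left out in turn (edgeR adjusted p of at most 0.017). Dppa3 passed the filter on low counts only through the WT libraries. It was not tested when counts were halved, or when a CPM of at least 1 in 3 libraries was required. The part of the lower germ cell markers in the values of Kdm1b and Dppa3 was not tested. Hells, a chromatin remodeller that DNMT enzymes need in heterochromatin, was named after its values were seen. It was at 28.3 ± 3.33 CPM in WT and at 19.8 ± 2.03 CPM in Hnrnpl-null, and it was not called (edgeR adjusted p = 0.090).

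Genes of base excision and partners of the TET enzymes had 2 of 13 tested members lower and 0 higher by edgeR. Of all tested genes, edgeR called 1.79% lower and 2.67% higher. In this list DESeq2 and limma-voom each called 2 lower and 1 higher. The 13 tested members had a median log2 fold change of -1e-04. Ogt (chromosome X, 101640051 to 101684351), an O-GlcNAc transferase that binds TET proteins, was at 165, 157 and 171 CPM in WT and at 130, 126 and 102 CPM in Hnrnpl-null, or 72.9% of WT (edgeR adjusted p = 0.049). Ung, a uracil-DNA glycosylase, went from 13.3 ± 3.33 to 6.74 ± 1.54 CPM (SD, n = 3 each), or 52.8% of WT (edgeR adjusted p = 0.0498). The groups of libraries were separate for each gene, but neither call held when any 1 library was left out (edgeR adjusted p of 0.057 to 0.27). Tdg, the glycosylase that removes oxidised methylcytosine, had 0 to 8 counts per library and was not tested. Of its 3523 exonic bases 3265 overlap other gene models, so its count carries little information.

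By edgeR, the supply of methyl groups had 1 of 9 members higher and 0 lower, with a median log2 fold change of 0.08. Of all tested genes, 2.67% were called higher and 1.79% lower. DESeq2 called 2 of these members higher and limma-voom 3, with 0 lower by either. Ahcy (chromosome 2, 155059312 to 155074497), which clears the S-adenosylhomocysteine that methyltransferases leave, was at 39.5, 39.5 and 39.8 CPM in WT and at 53.2, 59.7 and 61.8 CPM in Hnrnpl-null. It rose to 147% of WT (edgeR adjusted p = 0.016), a log2 fold change of 0.55 with an SE of 0.12. Leaving out any 1 WT library, or Hnrnpl-null replicate 2, ended the call (adjusted p by edgeR between 0.061 and 0.084).

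Among 10 tested partners of Spocd1 and Morc1 in piRNA-directed methylation, 6 were lower and 0 higher, with a median log2 fold change of -1.28. Of all tested genes, 1.79% were called lower and 2.67% higher. Tdrd1, a germ granule scaffold, fell to 22.6% of WT, Piwil2, a PIWI protein, to 37.4% and Mov10l1, an RNA helicase, to 38.4% (edgeR adjusted p = 3.8e-06, 7.9e-06 and 6.1e-05). Piwil4 is the nuclear PIWI protein that guides methylation in male germ cells. It had 14, 22 and 16 counts in WT and 16, 6 and 0 counts in Hnrnpl-null. On the scaled libraries that gave 1.84, 0.911 and 1.10 CPM against 0.674, 0.228 and 0 CPM, and Piwil4 was not called (edgeR adjusted p = 0.28). Germ cell markers were lower as well, and the part of this in the values of the piRNA list was not tested.

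Germline genes whose promoters are known to be methylated in somatic cells had 11 of 15 tested members lower and 0 higher. Of all tested genes, 1.79% were lower and 2.67% higher. The log2 fold changes of the list had a median of -0.94, against -0.01 for all tested genes. Bulk ovary counts do not separate germ cells from somatic cells, so these values do not report on silencing in somatic cells. The part of the lower germ cell markers in these values was not tested. Taf7l, a germ cell subunit of the general transcription machinery, fell to 47.6% of WT (edgeR adjusted p = 3.9e-04), and Tdrd1 and Mov10l1 belong to this list as well. The lower calls numbered 5 when WT replicate 3 was left out, and 6 when WT replicate 2 or Hnrnpl-null replicate 2 was. The list shares 7 genes with the germ cell markers and 4 with the piRNA list, so the counts of these lists are not independent. Methylation itself was not measured in these libraries.

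**Figure D4:**
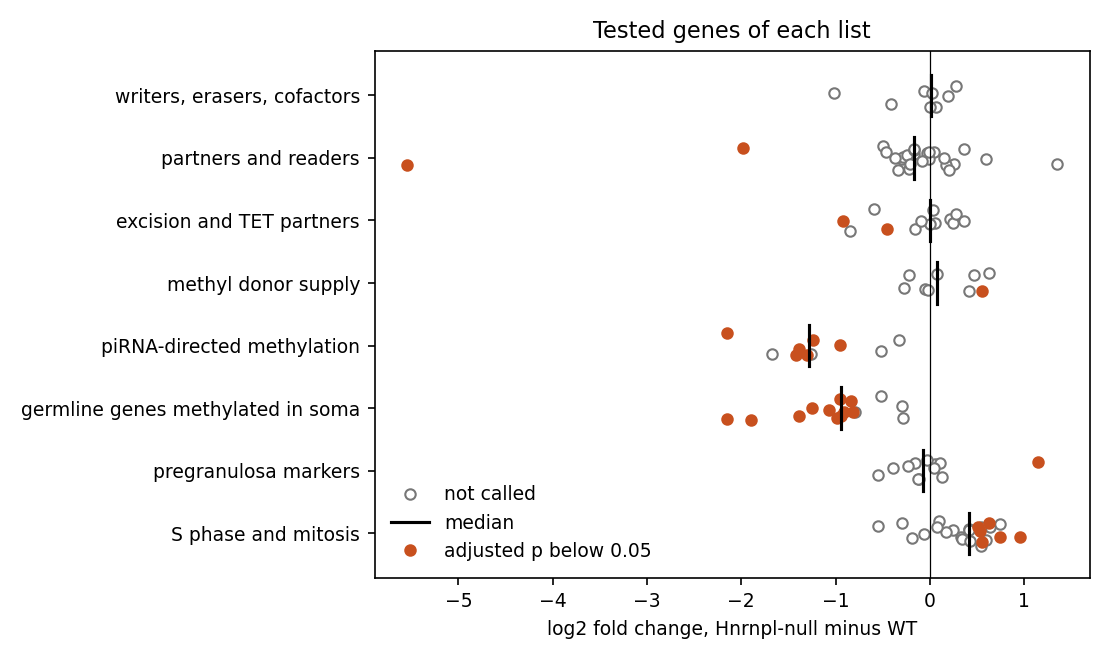
The log2 fold change of each tested gene in 8 lists, with filled points for an adjusted p below 0.05 in the edgeR test and a bar at each list's median. The medians are 0.008 for the DNA methylation genes, -1.28 for the piRNA-directed methylation list and 0.42 for S phase and mitosis.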

How the data were processed

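RNA-seq libraries of ovaries, 3 WT and 3 Hnrnpl-null, were compared. Raw counts per gene were deposited in 1 table, laid out as by featureCounts per the file headers, with exon coordinates and exonic length. The submitters' processing notes name mm10, featureCounts 2.0.6, HISAT2 2.2.1 and STAR 2.7.11a without their roles. Annotation, strand setting and multi-mapping were not given in the sources used here. Of the counts from 1 to 20, 93.4% to 98.4% per library were even. The test was that of edgeR 4.0.16 under R 4.3.3 on these counts (filterByExpr, TMM, glmQLFit, glmQLFTest, two-sided, genotype as the only term, all 6 libraries), after a check on simulated counts. Levels are CPM on TMM-scaled library sizes, and intervals come from the standard error implied by the F statistic. Alternatives were DESeq2 1.42.0, limma 3.58.1 with voom, other scalings and filters, halved counts, omission of Rn45s or of libraries, and a replicate block. Members and gene lists were chosen with earlier results of these data known. Besides the members, up to 3 called genes of smallest p were named per list, or the most abundant gene where none was called. Profiles like those of called members were to be named, but no member was called. No pair of replicates agreed within counting noise.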

Additional observations from a re-analysis of the deposited data

How the results depend on the processing

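Of the 8 members, Dnmt1, Dnmt3b, Tet3 and Morc1 kept the sign of their log2 fold change in all 16 alternative fits, and Tet3 was the only member called in any of them. The members called lower numbered 1 by DESeq2 and 1 by limma-voom, and 0 in the other 14. Tet3 ranged from -0.51 to -0.29. For members close to 0 the sign turned, with no call. Uhrf1 was at 0.0083 without the Rn45s row, 0.012 with library totals, 0.0147 by limma-voom, 0.0016 with no filter and 0.0655 without both libraries richest in Rn45s. Tet1 was at 0.0045 by limma-voom and 0.0465 without both libraries richest in Rn45s. Leaving out 1 library gave -0.0794 to 0.0478 for Uhrf1, -0.25 to 0.11 for Tet1, -0.0748 to 0.18 for Tet2 and -0.0018 to 0.15 for Dnmt3a. The log2 ratio of Morc1 to germ cell markers ran from -0.25 to 0.26 over the same omissions. Over all genes, 663 were called, against 1091 by DESeq2, 1273 by limma-voom, 1104 with no filter and 4 with library totals, where Rn45s sets the scale, and 249 (without Hnrnpl-null replicate 2) to 853 (without Hnrnpl-null replicate 3) when 1 library was left out. With the replicate number as a block, 444 genes and no member were called, Tet3 was at -0.42 (edgeR adjusted p = 0.087), and Ddx4 was no longer called. The deviations of same-numbered libraries correlated at -0.13, 0.11 and -0.08. The largest value, 0.16, was for WT replicate 1 with Hnrnpl-null replicate 3, the libraries richest in Rn45s. With 3 libraries per group this check cannot decide whether the numbers pair the libraries. Depth limits Morc1 and Dnmt3b most, with 6 and 26 counts in Hnrnpl-null replicate 3.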

Other observations

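Zbtb4, a reader of methylated CpG sites in the list of partners, had levels that followed no genotype. It was at 5886 CPM in WT replicate 1 and 15120 CPM in Hnrnpl-null replicate 3, the libraries richest in Rn45s, against 29.5 to 36.5 CPM in the other 4, and it was not called (edgeR adjusted p = 0.76). Apart from Rn45s, 3 genes of the table were over 10 CPM and over 20 times the highest other library in both of these libraries, namely Zbtb4, Kcnc4 and Ccdc177, which were picked for this pattern after their values were seen. Kcnc4, a potassium channel gene, was at 1619 and 7387 CPM in these libraries and at 0.228 to 2.34 CPM in the other 4. Ccdc177 was at 98.8 and 146 CPM and at 1.09 to 2.15 CPM in the other 4. No member of the DNA methylation genes was among them.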
